A study of Mus musculus with 16 samples.

Results

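Opposite-strand (os) rows are rows of a mouse gene table whose name is that of another gene followed by os, with or without a digit. Such a name is given to a transcript annotated on the strand opposite to the gene it is named for. In the count tables of tibial cortical bone described here, 316 of 47517 rows ended in os or os plus digits, and for 294 of them the name without that ending was a row of its own. After 2 rows were left out by the rule, 292 os rows remained, and 125 of them held a mean of 10 or more fragments over the 16 libraries. These 125 rows were named for 110 genes, 13 of which had more than 1 such os row. The threshold fell between Ccdc34os, with a mean of 10.7 fragments, and Pard3bos2, with 9.81.

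A transcript that runs opposite to a gene is called a natural antisense transcript. Some antisense transcripts act on the chromatin, splicing or stability of the gene opposite, some carry microRNAs, and for most no function is known. Sequencing tells such a transcript from the gene opposite only where the counting keeps the strand of each read, because a fragment from an exon shared by both strands otherwise fits both genes.

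Both tibiae of 8 male mice at 16 weeks of age gave the 16 libraries. The genotype labels were Ctrl for 4 mice and NT3-Cre+ (NT3 here) for 4, and the series title names activation of NIK, the kinase encoded by Map3k14, in the osteolineage. The right tibia of each mouse was compressed axially once a day on 9 days, with 1200 cycles per day at 4 Hz, and the left tibia was not loaded. Ctrl tibiae received a peak force of 8.7 N and NT3 tibiae 10.0 N, each set to give -2000 microstrain. Muscle was stripped off and marrow spun out 4 hours after the last bout, and the labels give a mean RNA integrity number of 5.4. The groups were therefore non-loaded Ctrl, loaded Ctrl, non-loaded NT3 and loaded NT3, each of 4 libraries from 4 mice. The allele and the Cre driver behind NT3, the genotype of Ctrl and the strain background are not given in the sources used here. Sequencing gave single-end reads of 75 bases from total RNA depleted of ribosomal RNA and primed at random.

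Ctrl libraries were 897909 to 998031 fragments deep without loading and 852831 to 1064391 with it, and NT3 libraries 775531 to 961382 and 758394 to 911686. No libraries held identical counts. The ribosomal RNA row Rn18s-rs5 took 4.09% to 13.6% of a library, least in non-loaded NT3 mouse 4 and most in loaded Ctrl mouse 3. The Gm10800 row took 0.132% to 5.72% of a library, most in loaded NT3 mouse 4. Rows of genes that bone or blood is known to express strongly were low in this table: the osteocalcin row Bglap held 0 to 4 fragments per library, the haemoglobin rows Hba-a1 and Hbb-bs 0 to 1 and 0 to 9, and Actb 11 to 33. The type I collagen row Col1a1 held 34 to 430. Map3k14 held 1 to 9 fragments per library, too few to check the genotype labels. The strand setting of the counting was not given in the sources used here. Fragments counted in an os row may therefore come from the gene opposite, and the strand they came from was not tested. Changes given below for an os row are changes of that row, whichever strand its fragments came from.

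The stretches below show how os exons lie over coding exons of the gene they are named for. They belong to rows that were called in a comparison, or, for Rapgef4os2, to a gene whose own row was called. Each is read 5′ to 3′ along the os transcript of GENCODE vM21 on GRCm38, with capitals for bases over coding exons of the named gene and lower case for os exon bases in no exon of it. They cover chr2:73659772-73659931 (plus strand) for Chn1os1, chr7:89510700-89510859 (plus) for Prss23os, chr4:32561738-32561937 (minus) for Bach2os and chr2:72225959-72226117 (minus) for Rapgef4os2.
Chn1os1: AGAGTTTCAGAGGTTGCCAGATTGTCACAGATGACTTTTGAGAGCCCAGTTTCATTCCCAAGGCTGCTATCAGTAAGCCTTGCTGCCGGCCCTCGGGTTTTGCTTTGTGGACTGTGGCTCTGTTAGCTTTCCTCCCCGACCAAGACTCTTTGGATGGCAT
Prss23os: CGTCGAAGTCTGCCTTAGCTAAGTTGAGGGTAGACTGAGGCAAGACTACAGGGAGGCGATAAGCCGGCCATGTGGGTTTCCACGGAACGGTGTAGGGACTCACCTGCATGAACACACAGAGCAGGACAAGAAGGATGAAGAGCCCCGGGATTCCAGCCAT
Bach2os: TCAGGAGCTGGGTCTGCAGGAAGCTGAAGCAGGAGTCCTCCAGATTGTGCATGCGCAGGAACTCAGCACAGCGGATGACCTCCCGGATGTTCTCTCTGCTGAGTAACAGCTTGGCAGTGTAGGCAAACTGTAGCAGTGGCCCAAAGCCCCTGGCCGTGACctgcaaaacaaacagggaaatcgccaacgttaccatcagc
Rapgef4os2: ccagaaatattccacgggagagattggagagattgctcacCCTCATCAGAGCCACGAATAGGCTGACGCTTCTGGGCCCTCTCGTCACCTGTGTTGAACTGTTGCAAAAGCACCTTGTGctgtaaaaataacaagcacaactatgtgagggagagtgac
The capitals of Chn1os1 and Prss23os end in CAT, which is ATG on the strand of Chn1 and Prss23, at the start of the coding stretch. In Rapgef4os2 the lower-case bases before the capitals end in ac and those after begin with ct. On the strand of the named gene these are gt and ag, the letters that open and close most introns. Here the os exon runs straight through an exon of the named gene into the introns on both sides.

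Dnm3os is a different kind of os row: it lies in an intron of Dnm3, the gene of a dynamin, over none of its exons, and carries the microRNA genes Mir199a-2 and Mir214. The mature sequences below are from RefSeq on GRCm38.p6, with the seed (bases 2 to 8) in capitals. No 2 of the 4 share a seed.
mmu-miR-199a-5p: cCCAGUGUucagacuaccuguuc
mmu-miR-199a-3p: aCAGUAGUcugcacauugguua
mmu-miR-214-5p: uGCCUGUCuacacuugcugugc
mmu-miR-214-3p: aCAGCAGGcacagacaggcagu
They cover chr1:162217844-162217866, chr1:162217883-162217904, chr1:162223397-162223418 and chr1:162223438-162223459 on the plus strand. Reads of 75 bases from fragmented RNA do not count the mature microRNAs. Whether the fragments of the Dnm3os row came from the host transcript or from the strand of Dnm3 was not tested.

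The os rows were more often well covered than other rows. A mean of 10 or more fragments was reached by 42.8% of the 292 os rows and by 12.8% of all 47517 rows (6069). Of the remaining os rows, 64 had a mean from 1 up to 10, 103 had a mean under 1, and 25 of these held no fragment in any library. All 292 os rows together took 1.17% of the fragments, and the 125 with a mean of 10 or more took 1.13%. The share of these 125 rows in Ctrl was 1.10% ± 0.0992 without and 1.13% ± 0.0504 with loading. In NT3 it was 1.17% ± 0.0499 and 1.12% ± 0.0858 (mean ± SD, n = 4). The ranges of the 4 groups overlapped.

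Where an os row lies relative to the exons opposite went with how often it was covered. Of 156 os rows whose exons overlap exons of the named gene by at least 20 bases, 100 (64.1%) reached the mean of 10. Within these 156, the extent of the overlap made little difference to that share. It was 66.1% with under 10% of bases over named exons, 59.1% from 10% to 25%, 65.7% from 25% to 50% and 66.7% from 50%. The median fragments per kilobase were 8.90, 11.9, 26.9 and 25.3, in that order. Among 65 os rows inside the span of the named gene but over none of its exons, 21 (32.3%) did. Head-to-head rows, which start within 5 kb of the named gene's start and run away from it, reached it in 1 of 35 cases (2.86%), and rows whose spans overlap only in part in 1 of 21 (4.76%). Counting exons of any gene on the other strand, 102 of 164 os rows with such an overlap were kept (62.2%, median mean 20.1 fragments), against 23 of 127 without (18.1%, median 0.812). These shares describe the table and were not tested.

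**Figure D1:**
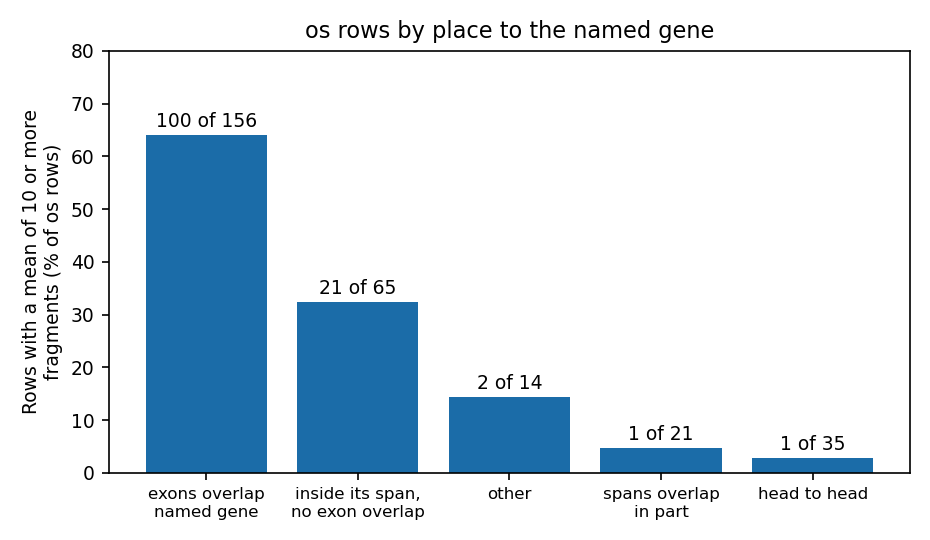
Share of os rows with a mean of 10 or more fragments (y axis, %) by place to the named gene (x axis), with the rows kept and all rows above each bar. The bar falls from 64.1% for rows over exons of the named gene to 2.86% for head-to-head rows.

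The single head-to-head row that was kept, Brip1os, was also the os row with the highest mean. It starts 177 bases from Brip1, the gene of a DNA helicase that works with BRCA1, and lies over exons of Med13, a Mediator subunit gene, and Ints2, an Integrator subunit gene. Its mean was 732 fragments, against 1.06 for Brip1.

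Over all 292 os rows, 172 had a higher mean than the row of the gene they are named for, 115 a lower one and 5 the same, with medians of 5.63 and 2.31 fragments. The threshold of 10 acts on the os row alone, which favours rows that lie high against their named rows without requiring it. Of the 125 kept rows, 117 were higher in mean counts, 103 of them in each of the 16 libraries. Among the 70 os rows whose named row had a mean of 10 or more, 33 were higher and 37 lower. Per kilobase of the length given in the files, 121 of 125 were higher. The median of the means was 41.2 fragments for the kept os rows and 4.06 for their named rows, and 23 of these os rows stood beside a named row with a mean under 1. The 8 os rows with the lower mean were Dnm3os (38.1 against 48.4), Mypopos (33.7 against 45.8), Acss2os (26.3 against 38.4), Ppp1r18os (25.7 against 50.3), Prox2os (17.5 against 63.6), Lrrc75aos2 (17.1 against 50.1), Bcas3os2 (13.6 against 29.3) and Mccc1os (11.6 against 33.6).

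**Figure D2:**
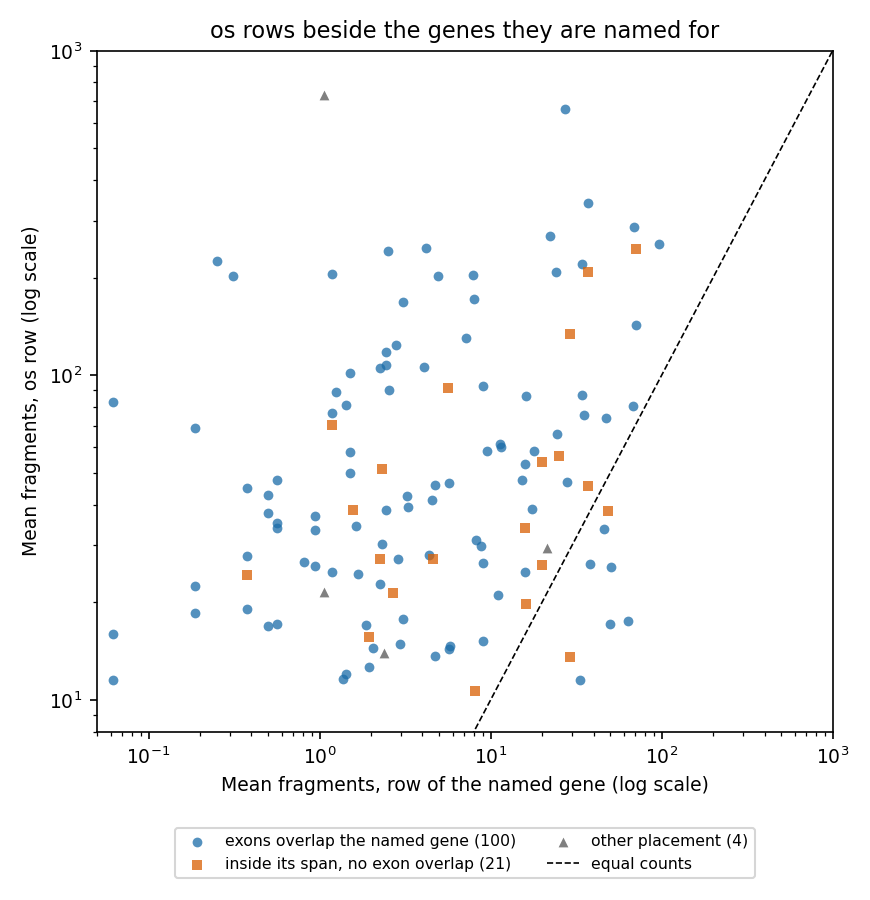
Mean fragments over 16 libraries of each of the 125 os rows (y axis, log scale) against the row of the gene it is named for (x axis, log scale), marked by place. Points above the dashed line hold more fragments in the os row, as 117 of 125 do. Rows were kept by the mean of the os row alone, and of all 292 os rows 172 lie above.

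The os rows over 100 fragments were 28. After Brip1os came Phtf1os with a mean of 663 (Phtf1 27.1), Rapgef4os2 with 340 (Rapgef4 37.3), Rab10os with 286 (Rab10 69.1), Ino80dos with 269 (Ino80d 22.1) and Zeb2os with 253 (Zeb2 96.4). Rapgef4 encodes the cAMP-activated exchange factor Epac2, Rab10 a small GTPase of vesicle traffic, Ino80d a subunit of the INO80 chromatin remodeller and Zeb2 a zinc finger repressor. Over the 16 libraries, after TMM scaling, Brip1os ran from 731 to 927 counts per 1000000 fragments (CPM), Phtf1os from 490 to 844, Rapgef4os2 from 224 to 557, Rab10os from 241 to 391, Ino80dos from 243 to 379 and Zeb2os from 221 to 350. None of the 6 was called in any of the 7 comparisons, and their largest log2 fold change was -0.43 (SE 0.15) for Rapgef4os2 between loaded NT3 and loaded Ctrl, adjusted p = 0.133.

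The other 22 rows over 100 fragments included Uckl1os (247 beside 4.19 for Uckl1), Far1os (241 beside 2.5 for Far1, a fatty acyl-CoA reductase gene), Toporsos (221 beside 34.2), Man2c1os (209 beside 24.1), Ube4bos1 (205 beside 1.19 for Ube4b, a ubiquitin ligase gene), Anxa11os (202 beside 0.312 for the annexin gene Anxa11) and Sorbs2os (202 beside 4.94). Tomm6os, Fcnaos, Bcas3os1, Pard3bos1, Zmiz1os1, Prkag2os2, Kdm6bos, Atxn7l1os2 and Usp46os2 followed, from 172 for Tomm6os to 102 for Usp46os2. Runx2os2, Prss23os, Rapgef4os3, Chn1os1, Runx2os1 and Arhgap15os, the rest of the 22, are given with the comparisons.

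From 50 to 100 fragments there were 24 rows: Tnfsf13os, Aknaos, Adap2os, Slfn5os, Ccdc142os, Rsf1os2, Dhrs13os, Nckap5los, Cebpzos, Ube4bos3, Frmd8os, Arf4os, Egfros, Scpep1os, Zbtb11os1, Bach2os, Rbm3os, Junos, Hoxb3os, Tnk2os, Sap30bpos, Pitpnm2os2, Arhgap27os2 and Plxna4os2. Dhrs13os had a mean of 82.7 beside 0.062 for Dhrs13, and Cebpzos 80.7 beside 68.4 for Cebpz. From 30 to 50 fragments there were 26: Usp46os1, Fam219aos, Irx3os, Sp3os, Faddos, Abhd11os, Rapgef4os1, Alkbh3os1, Galnt6os, Rptoros, Mxra8os, Itpr3os, Dlx6os2, Prkag2os1, Ict1os, Dnm3os, Ppp1r3fos, Rapgef3os1, Tbc1d22bos, Appbp2os, Sspnos, Arhgap27os3, Mypopos, Hopxos, Zfhx2os and Plxna4os3. Irx3os, named for an Iroquois homeobox gene, had 47.5 beside 15.3, and Faddos, named for the adaptor of death receptors, 46.6 beside 5.69.

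From 20 to 30 fragments there were 22: Dnmt3aos, Fbxl12os, Peak1os, Sardhos, Atxn7l1os1, Dtnbos, Lrrc8dos, Myadml2os, Tspan32os, Acss2os, Pitpnm2os1, Rapgef3os2, Ppp1r18os, Arhgap27os1, Nudt12os, Notumos, Pip5k1bos, Dhx58os, Slain1os, Tmcc3os, Lrp8os2 and N4bp2os. Dnmt3aos, named for a DNA methyltransferase, had 29.9 beside 8.81, and Notumos, named for a secreted enzyme that inactivates Wnt proteins, 24.4 beside 1.69. From 10 to 20 fragments there were 25: Rsf1os1, Cep112os1, Taco1os, Ift88os, Prox2os, Fancd2os, Lrrc75aos2, Arhgap20os, Proscos, Kcnmb4os1, Nr6a1os, Hk1os, Zfp85os, Unc45bos, Cdk19os, Lppos, Slc7a6os, Mkln1os, Bcas3os2, Tmem51os1, Hoxd3os1, Mecomos, Mccc1os, Kcnmb4os2 and Ccdc34os. The annotation types 112 of the 125 rows as antisense.

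Each comparison was tested over all rows with an edgeR quasi-likelihood test and Benjamini-Hochberg adjustment, and a row was called at an adjusted p below 0.05. Of the 125 os rows, 13 were called in at least 1 of 7 comparisons and 112 in none. How many of all rows were called in at least 1 comparison was not counted. The 13 therefore have no share of all rows beside them, and such shares are given for each comparison alone. Of the 13, 12 lie over exons of the gene they are named for, as do 100 of the 125, and Egfros lies inside the Egfr span over none. In loaded against non-loaded tibiae of Ctrl mice, 7 of 125 os rows were called (5.60%), against 4.06% of all 7192 rows tested. In NT3 mice 1 of 125 was called (0.800%), against 0.417% of all rows, and for the average over both genotypes 5 of 125 (4.00%), against 4.39% of all. These shares were near those of all rows. The median log2 fold change of the os rows was -0.04 in Ctrl and 0.00 in NT3, and of all rows -0.03 and 0.00.

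The strongest loading response among os rows was that of Chn1os1. It is named for Chn1, which encodes a GTPase-activating protein for Rac, and 83.8% of its exon bases lie over Chn1 exons. In Ctrl mice 1 to 4 it held 156, 47.4, 73.0 and 181 CPM in the non-loaded limb and 466, 243, 434 and 414 in the loaded limb, and in NT3 mice 173, 181, 110 and 118 against 417, 282, 181 and 211. The loaded limb was higher in 8 of 8 mice, the Ctrl limbs did not overlap, and in NT3 the lowest loaded limb (180.6) fell just below the highest non-loaded one (181.1). The rise was 3.64-fold in Ctrl (log2 1.86, SE 0.17, adjusted p = 2.94e-09) and 1.84-fold in NT3 (log2 0.88, SE 0.17, adjusted p = 0.00553). The NT3 call was lost without NT3 mouse 1, without NT3 mouse 4 and without the replicate block for mouse, where adjusted p reached 0.81. The Chn1 row held 2 to 20 fragments per library.

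Prss23os, named for the gene of a secreted serine protease, came next. Ctrl mice 1 to 4 had 182, 124, 247 and 107 CPM without loading and 464, 464, 306 and 392 with it, and NT3 mice 241, 156, 188 and 183 against 276, 205, 205 and 293. All 8 mice were higher in the loaded limb, with no overlap in Ctrl and overlap in NT3. The rise was 2.54-fold in Ctrl (log2 1.34, SE 0.21, adjusted p = 0.00162), and the log2 fold change in NT3 was 0.35 (SE 0.21, adjusted p = 0.811). On average over both genotypes Prss23os rose by 0.85 log2 units (adjusted p = 0.00393). The Prss23 row held 0 or 1 fragment per library.

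The other os rows called in Ctrl moved less or had few fragments. Hoxb3os, over exons of the homeobox genes Hoxb3 and Hoxb2, went from 50.5 ± 5.37 CPM to 88.7 ± 21.7 (mean ± SD, n = 4; log2 0.79, SE 0.21, adjusted p = 0.0199), higher in 4 of 4 Ctrl mice. Egfros, inside the gene of the epidermal growth factor receptor, went from 58.7 ± 17.5 to 99.99 ± 28.2 (log2 0.76, SE 0.21, adjusted p = 0.0269), higher in 3 of 4. Sspnos, named for the gene of sarcospan in the dystrophin complex, went from 27.1 ± 9.25 to 51.2 ± 10.8 (log2 0.93, SE 0.26, adjusted p = 0.025), higher in 4 of 4.

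Kcnmb4os2, named for a subunit gene of the BK potassium channel, had 4 to 8 fragments in non-loaded Ctrl limbs and 11 to 22 in loaded ones (log2 1.60, SE 0.44, adjusted p = 0.0255). Arhgap15os, named for another Rac GTPase-activating protein, fell from 129 ± 8.42 to 87.5 ± 12.2 CPM (log2 -0.57, SE 0.17, adjusted p = 0.0465), lower in 4 of 4 Ctrl mice. In NT3 mice the same rows had log2 fold changes of 0.47 (Hoxb3os), 0.29 (Egfros), 0.07 (Sspnos), -0.10 (Kcnmb4os2) and -0.01 (Arhgap15os), none of them called. The calls of these 5 rows in Ctrl were lost without at least 2 of the 8 mice each: Hoxb3os without Ctrl mice 1 and 3, Egfros and Sspnos without Ctrl mice 1 and 2, Kcnmb4os2 without Ctrl mice 1, 3 and 4, and Arhgap15os without any 1 Ctrl mouse and without NT3 mice 1 and 2. Their highest adjusted p over all alternatives was 0.247, 0.446, 0.235, 0.151 and 0.295, in that order. With DESeq2 all 5 rows lost the call in Ctrl, and with no filter on low counts Sspnos, Kcnmb4os2 and Arhgap15os did. Without the replicate block 3 os rows were called in Ctrl instead of 7.

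Nudt12os was called only for the average over both genotypes. It is named for the gene of a nudix hydrolase of NADH and lies over Nudt12 exons with 20.8% of its bases. It held 37.4 ± 6.47 CPM in non-loaded and 24.4 ± 6.40 in loaded Ctrl limbs, and 31.1 ± 4.92 against 17.0 ± 0.727 in NT3 (mean ± SD, n = 4). The loaded limb was lower in 8 of 8 mice, with no overlap between limbs in either genotype. The average fall was -0.74 on the log2 scale (SE 0.20, adjusted p = 0.0229), a call that was lost without each of Ctrl mice 2 and 3 and NT3 mice 1, 3 and 4. It was also lost with DESeq2 and with no filter on low counts, with adjusted p up to 0.0818 over all alternatives. Over both genotypes Hoxb3os (0.63, SE 0.15, adjusted p = 0.00724) and Egfros (0.52, SE 0.15, adjusted p = 0.032) were also called. Hoxb3os lost that call without Ctrl mouse 3 or NT3 mouse 1, and Egfros without Ctrl mice 1 and 2 and NT3 mice 1, 2 and 3, each left out alone. Egfros also lost it with DESeq2. Over all alternatives adjusted p was up to 0.0893 for Hoxb3os and 0.233 for Egfros.

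**Figure D3:**
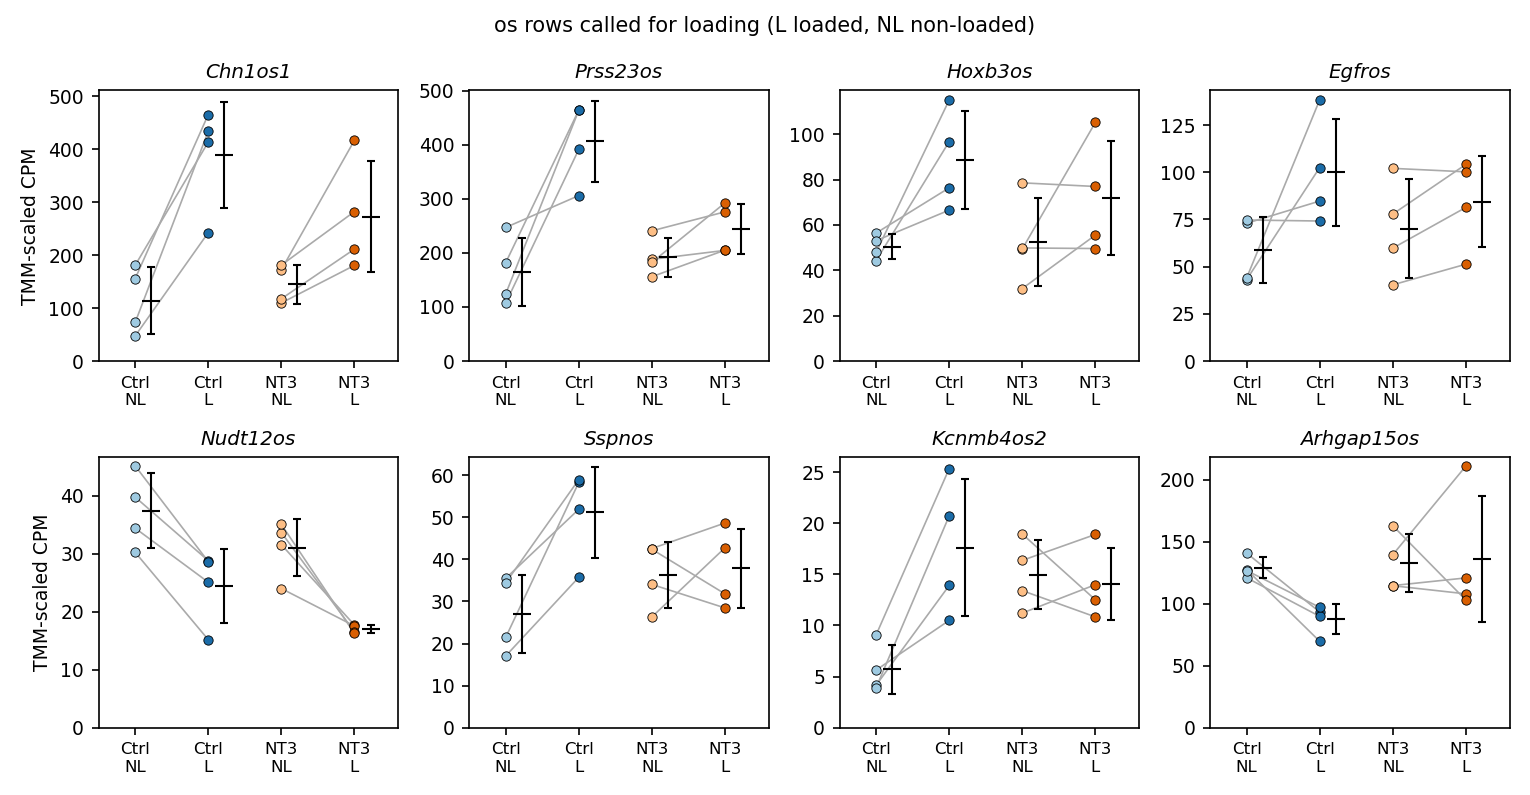
TMM-scaled CPM (y axis, linear from 0) of the 8 os rows called for loading, by group (x axis). Points are libraries, grey lines join the limbs of a mouse, and bars give the mean ± SD of 4 libraries. Chn1os1 and Prss23os are higher in the loaded limb of 8 of 8 mice and Nudt12os lower in 8 of 8.

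Other rows moved with loading. The summed CPM of 10 osteoblast and osteocyte marker rows was higher in the loaded limb of 8 of 8 mice, from 367 to 664 without loading to 877 to 1283 with it in Ctrl, and from 427 to 689 to 608 to 1011 in NT3. Of the 7 of these rows tested, 5 were called higher and 0 lower in Ctrl, and 1 higher and 0 lower in NT3. Not all estimates were above 0. Mepe and Sost had log2 fold changes of -0.034 and -0.401 in Ctrl and -0.703 and -0.908 in NT3. Ibsp had -0.115 in NT3. Col1a1, Col1a2, Sparc and Dmp1 were above 0 in both genotypes, and Ibsp in Ctrl. The summed CPM of 8 skeletal muscle rows was lower in the loaded limb of 7 of 8 mice (90.7 to 262 against 77.2 to 221 in Ctrl, 117 to 290 against 72.5 to 152 in NT3), with 0 of 5 tested rows called. For 10 marrow rows it was lower in 5 of 8 (44.0 to 76.1 against 42.6 to 70.3 in Ctrl, 62.1 to 81.0 against 44.8 to 89.0 in NT3), with 0 of 3 called. The part of these cells in the os results was not tested, and in whole bone fewer cells of a type and less RNA per cell cannot be told apart.

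A list of 12 other antisense or long noncoding RNAs without an os name had 11 rows in the tables, 4 of them tested. The Nespas row, an antisense transcript of the imprinted Gnas locus, rose by 2.04 log2 units with loading in Ctrl (SE 0.41, adjusted p = 6.86e-04). In NT3 it was not called (log2 0.69, SE 0.58, adjusted p = 0.886), and it held 0 to 60 fragments per library. The Kcnq1ot1 row, the antisense transcript of the imprinted Kcnq1 locus, rose by 0.43 on average over both genotypes (SE 0.10, adjusted p = 0.0046). Malat1 (log2 0.09, SE 0.09, adjusted p = 0.735) and Neat1 (0.67, SE 0.25, adjusted p = 0.141) were not called on that average.

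Whether the loading response of an os row differed between genotypes was tested as the difference of the 2 loading effects. None of 125 os rows was called (0.00%), against 0.139% of 7192 rows, with 13 os rows (10.4%) and 472 of all rows (6.56%) at an unadjusted p below 0.05. DESeq2 called 0 os rows as well, and 10 of all rows. Chn1os1 had the smallest adjusted p, with a loading effect lower by -0.98 log2 units in NT3 (SE 0.24, adjusted p = 0.122), and for Prss23os the difference was -0.996 (SE 0.30, adjusted p = 0.463). Both were called when no filter on low counts was used (-1.02, adjusted p = 0.00425, and -1.03, adjusted p = 0.0019). Leaving out Ctrl mouse 4 or NT3 mouse 1 gave Chn1os1 an adjusted p of 5.09e-04 or 0.0457, and leaving out Ctrl mouse 3 gave Prss23os 1.94e-04. The widest differences were those of Kcnmb4os2 (-1.71, SE 0.60, adjusted p = 0.507) and Slain1os (1.35, SE 0.46, adjusted p = 0.454). Of the 7 osteoblast and osteocyte rows tested, 2 were called here, both lower in NT3: Ibsp, the bone sialoprotein row (-1.10, SE 0.22, adjusted p = 0.0117), and Col1a2, a type I collagen row (-1.13, SE 0.26, adjusted p = 0.047). Their part in the os values was not tested.

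Between genotypes, few os rows passed the test in either limb. In loaded tibiae 4 of 123 os rows tested were called (3.25%), against 2.63% of all 6080 rows. In non-loaded tibiae 0 of 125 were called by edgeR, against 0.579% of 6220 rows, with 5 os rows (4.00%) and 485 of all rows (7.80%) at an unadjusted p below 0.05. DESeq2 called 1 os row there and 45 of all rows. With the limbs of each mouse summed, 4 of 125 were called (3.20%), against 1.98% of 8626 rows. The median log2 fold change of the os rows was 0.01, -0.03 and -0.03 in the non-loaded, loaded and summed comparisons, and of all rows -0.01, 0.00 and -0.01.

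Slain1os, named for the gene of a protein that tracks growing microtubule ends, had the widest difference between genotypes in loaded and in summed limbs. In the loaded limb the 4 Ctrl mice had 11.5, 13.4, 8.86 and 9.82 CPM and the 4 NT3 mice 38.6, 36.5, 52.1 and 43.4, with no overlap. In the non-loaded limb Ctrl had 17.0, 11.3, 22.9 and 28.5 and NT3 28.4, 36.0, 26.2 and 26.8, which overlapped. The loaded limbs were 3.84-fold higher in NT3 (log2 1.94, SE 0.32, adjusted p = 2.15e-04), and the summed limbs 2.26-fold (log2 1.18, SE 0.22, adjusted p = 0.00213). In non-loaded limbs the log2 fold change was 0.53 (SE 0.31, adjusted p = 0.751). The Slain1 row held 0 to 2 fragments per library.

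Bach2os, named for the gene of a repressor that acts in lymphocytes, was higher in NT3 as well. Loaded Ctrl limbs had 40.3, 36.3, 53.1 and 50.2 CPM and loaded NT3 limbs 79.2, 85.1, 91.6 and 107, with no overlap. Non-loaded limbs had 40.9, 39.5, 56.3 and 83.6 in Ctrl and 69.4, 101, 99.7 and 88.7 in NT3, which overlapped. The log2 fold change was 1.01 in loaded limbs (SE 0.21, adjusted p = 0.0034) and 0.84 in summed limbs (SE 0.17, adjusted p = 0.00517). The Bach2 row, with 2 to 21 fragments per library, had 1.20 in loaded limbs (SE 0.50, adjusted p = 0.256).

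In loaded limbs Prss23os was lower in NT3, at 245 ± 46.3 CPM against 407 ± 75.2 in Ctrl (mean ± SD, n = 4; log2 -0.73, SE 0.15, adjusted p = 0.0029), with no overlap. Tmem51os1, with 4 to 12 fragments in loaded Ctrl and 13 to 26 in loaded NT3 limbs, was higher in NT3 (log2 1.54, SE 0.43, adjusted p = 0.0465). That call was lost without any 1 of Ctrl mice 1, 2 and 3 or of the 4 NT3 mice. It was also lost with DESeq2 and with no filter on low counts (adjusted p up to 0.162 over all alternatives). With limbs summed, Arhgap20os was lower in NT3 (log2 -1.13, SE 0.25, adjusted p = 0.0116). It held 29.8 ± 3.87 CPM in left limbs of Ctrl and 14.3 ± 2.01 in those of NT3 without overlap. Loaded limbs held 21.7 ± 8.41 and 8.74 ± 2.93 and overlapped. Neither limb alone was called (adjusted p = 0.157 non-loaded and 0.108 loaded), and the summed call was lost without Ctrl mouse 2 (adjusted p = 0.0529).

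Itpr3os, named for the gene of a calcium channel opened by inositol trisphosphate, was higher in NT3 with limbs summed (log2 0.76, SE 0.20, adjusted p = 0.033). Non-loaded Ctrl limbs had 26.1, 23.7, 36.5 and 35.4 CPM and non-loaded NT3 limbs 54.7, 70.9, 63.6 and 54.7, with no overlap. Loaded limbs had 31.1, 43.0, 18.98 and 49.1 in Ctrl and 33.3, 41.9, 86.5 and 42.0 in NT3, which overlapped (log2 0.49, SE 0.30, adjusted p = 0.533). Its adjusted p in non-loaded limbs was 0.0564 (log2 0.98, SE 0.24), the smallest of any os row there, and 0.0262 with DESeq2. The summed call was lost without each of Ctrl mice 1, 2 and 3 and NT3 mice 2 and 3 (adjusted p up to 0.248).

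A marker row of bone cells also differed between genotypes. With limbs summed, 1 of 9 tested osteoblast and osteocyte rows was called, Sost, the gene of the Wnt inhibitor sclerostin, which was lower in NT3 (log2 -1.02, SE 0.24, adjusted p = 0.0176). In loaded limbs 0 of 7 were called, and their median log2 fold change was -0.64, against 0.00 for all rows. None of the marrow or muscle rows tested was called between genotypes. The summed levels of the 3 lists overlapped between genotypes in both limbs, and the part of these cells in the os results was not tested.

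**Figure D4:**
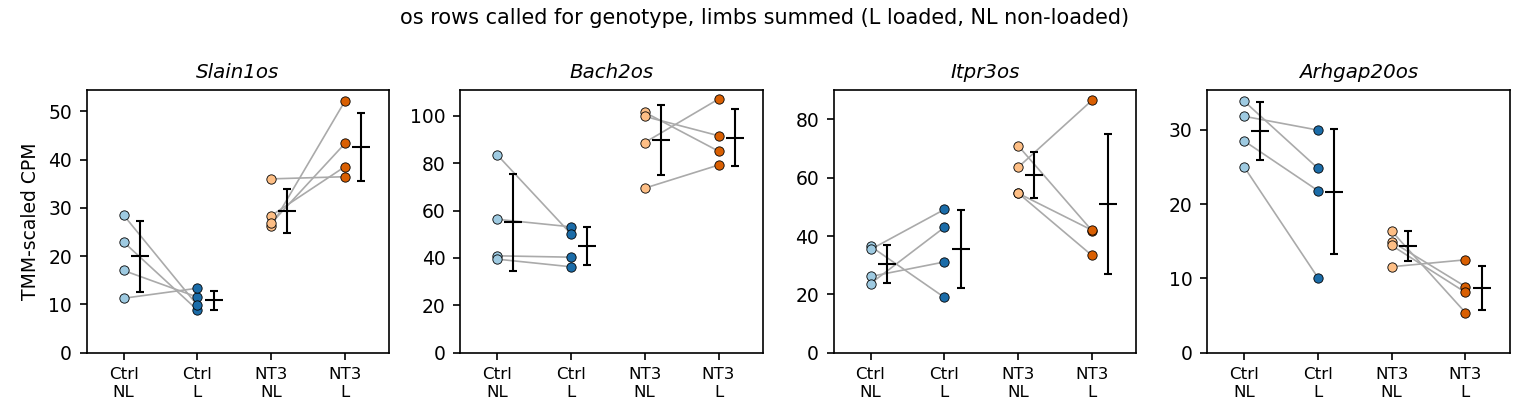
TMM-scaled CPM (y axis, linear from 0) of the 4 os rows called between genotypes with limbs summed, by group (x axis), drawn with mouse lines and mean ± SD of 4 libraries. Slain1os and Bach2os do not overlap between loaded Ctrl and loaded NT3 limbs.

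Rapgef4 was a named gene whose own row was called between genotypes while its os rows were not. The Rapgef4 row held 40.9, 93.7, 70.9 and 72.8 CPM in non-loaded Ctrl limbs and 53.0, 99.3, 39.2 and 34.9 in loaded ones, against 7.36, 43.7, 13.7 and 15.5 and 14.6, 21.6, 11.4 and 14.9 in NT3. It was 3.66-fold lower in loaded NT3 limbs (log2 -1.87, SE 0.33, adjusted p = 5.94e-04). With limbs summed it was 3.52-fold lower (log2 -1.82, SE 0.34, adjusted p = 0.0138), a call lost without NT3 mouse 3 or 4 (adjusted p up to 0.0967). In non-loaded limbs the genotypes overlapped and the row was not called (log2 -1.80, SE 0.43, adjusted p = 0.122). The 3 os rows inside Rapgef4 were not called: with limbs summed their log2 fold changes were -0.13 (SE 0.22) for Rapgef4os1, -0.24 (SE 0.15) for Rapgef4os2 and -0.25 (SE 0.21) for Rapgef4os3. Rapgef4os1 and Rapgef4os3 lie over no Rapgef4 exon and Rapgef4os2 with 15.9% of its bases. The difference between the Rapgef4 row and its os rows was not tested. These extra rows, and those of Runx2 and Dnm3 that follow, were chosen after their values were seen.

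**Figure D5:**
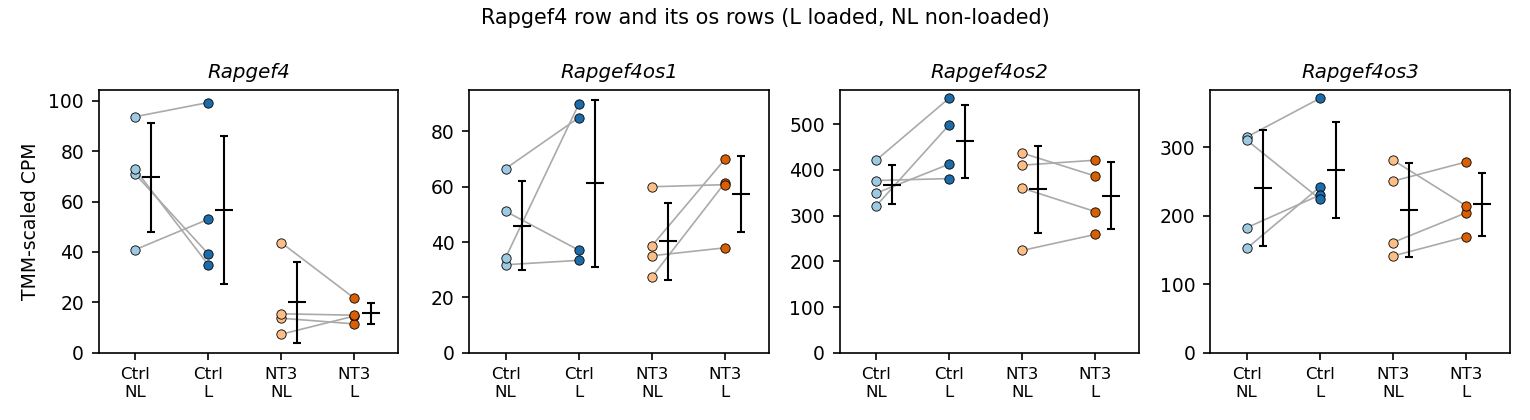
TMM-scaled CPM (y axis, linear from 0, own scale in each panel) of the Rapgef4 row and its 3 os rows by group (x axis), drawn with mouse lines and mean ± SD of 4 libraries. The Rapgef4 row does not overlap between loaded Ctrl and loaded NT3 limbs, and the os rows do.

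Runx2, which encodes the transcription factor that sets the osteoblast fate, had 2 os rows. Runx2os2 had a mean of 245 fragments and lies over no Runx2 exon, Runx2os1 had 142.5 with 65.5% of its bases over Runx2 exons, and the Runx2 row had 70.4. Per kilobase these were 299.8, 179.9 and 7.97 fragments. With loading in Ctrl the log2 fold changes were 0.29 (SE 0.14, adjusted p = 0.308) for Runx2os2, 0.17 (SE 0.16, adjusted p = 0.69) for Runx2os1 and -0.27 (SE 0.19, adjusted p = 0.547) for Runx2, so none of the 3 was called.

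Dnm3os, the host of the microRNAs shown above, held 34.1, 36.1, 45.9 and 37.4 CPM in non-loaded and 47.2, 43.0, 30.4 and 31.6 in loaded Ctrl limbs, and 42.1, 39.3, 27.4 and 34.0 against 81.3, 49.96, 52.1 and 54.2 in NT3. The loaded NT3 limbs lay above the other 3 groups, but the loading effect in NT3 did not pass (log2 0.73, SE 0.24, adjusted p = 0.278). The Dnm3 row was lower in NT3 with limbs summed (log2 -0.67, SE 0.18, adjusted p = 0.0394), a call lost without any 1 of Ctrl mice 2 and 4 or the 4 NT3 mice (adjusted p up to 0.216). Dnm3os had 0.30 there (SE 0.19, adjusted p = 0.597).

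Over all pairs in which both rows were tested, the os row and its named row had log2 fold changes of the same sign in 28 of 41 pairs between non-loaded genotypes, 25 of 42 between loaded ones and 38 of 56 with limbs summed. For loading the counts were 28 of 50 in Ctrl and 25 of 50 in NT3. The pairs share libraries, and some share a named gene, so these counts are given as a description without a test.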

How the data were processed

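Fragment counts per gene were deposited by the authors, 1 table per library. Per the submitters' processing notes, the tools were STAR 2.4.2a, featureCounts 1.4.6 of Subread and DESeq2, with the build mm10. The sources used here give neither the annotation release nor the strand setting. Members, lists and tests were chosen with earlier results of these data known.

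Rows were placed by symbol on GENCODE vM21 (GRCm38): 123 of the 125 os rows matched directly and 2 by an older symbol. The low-count filter was filterByExpr (minimum count 10), the scaling TMM and the test the robust quasi-likelihood F test of edgeR 4.0.16 in R 4.3.3 (limma 3.58.1), with Benjamini-Hochberg adjustment over all rows tested. Genotype comparisons used 8 libraries, or the limbs of each mouse summed. Loading comparisons used all 16 libraries with a block for mouse. The pairing comes from the design text, and deviations of the limbs of a mouse correlated at 0.0442 to 0.171. The fits were also run on simulated counts. These were drawn without differences between mice, so that run could not check the block for mouse. Alternatives were DESeq2 1.42.0, RLE scaling, no filter, no block and leaving out each mouse. Depth was 758394 to 1064391 fragments per library. CPM are TMM-scaled. Every os row was named by rule, and called rows and the 6 with the highest mean were given by library or group.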

Additional observations from a re-analysis of the deposited data

Results flagged for a closer look

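In 7 of 132 groups of 4 libraries, 1 library lay far from the other 3, with a gap above Dixon's critical value for its share of the range. Chance alone sets apart about 1 in 20 such groups.

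In loaded NT3 limbs, Arhgap15os held 211 CPM in mouse 3 against 103 to 121 in the others, Itpr3os held 86.5 in mouse 3 against 33.3 to 42.0, Zeb2os held 303 in mouse 1 against 278 to 281, and Dnm3os held 81.3 in mouse 1 against 49.96 to 54.2. In loaded Ctrl limbs, Phtf1os held 682 CPM in mouse 1 against 727 to 734, and Rapgef4os3 held 371 in mouse 2 against 225 to 242. In non-loaded NT3 limbs, Runx2os2 held 327 CPM in mouse 2 against 202 to 218.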

How the results depend on the processing

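Of 24 called values named in the text, 10 held under every alternative run: Chn1os1 in Ctrl and on average, Prss23os in its 3 calls, Slain1os and Bach2os in their 2 each, and Rapgef4 in loaded limbs. Over 277 runs, 69 ended a call and 0 turned a direction. Without the replicate block, Arhgap15os, Egfros, Hoxb3os and Sspnos in Ctrl, Egfros on average and Chn1os1 in NT3 lost their calls, and the other 7 of the 13 loading calls held. Genotype comparisons have no block. The cause was not tested.

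Among all rows, no filter gave 71 calls between non-loaded genotypes (36 as reported) and 17 for the difference in loading effect (10). DESeq2 gave 169 for loading in Ctrl (292), 19 in NT3 (30) and 197 on average (316). Without the replicate block these were 171, 5 and 205, and 0 for the difference. Leaving out each mouse gave 12 to 77 calls between non-loaded genotypes, 87 to 210 with limbs summed, 163 to 324 for loading in Ctrl and 17 to 44 in NT3.

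Among os rows, DESeq2, RLE scaling and no filter each gave 1 call between non-loaded genotypes (0 as reported). For loading in Ctrl (7), DESeq2 gave 2, no filter 4 and no replicate block 3. The NT3 call (1) became 0 without the block, the average count (5) became 3 with DESeq2, and the difference (0) became 2 with no filter. Leaving out each mouse gave 3 to 7 between loaded genotypes, 2 to 5 with limbs summed, 2 to 7 for loading in Ctrl, 0 to 1 in NT3, 2 to 9 on average and 0 to 1 for the difference.

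Rows with few fragments, such as Kcnmb4os2 and Tmem51os1, limit what these depths can show. The mean set for keeping a row leaves 149 rows at 5 fragments and 100 at 20, and an exon overlap of 1 or 100 bases leaves 102 or 81 in place of 100.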
